A study of Mus musculus with 18 samples.

Results

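The 10 genes described here encode the cytoplasmic actins Actb and Actg1 and proteins that load, cut, cross-link, anchor or transcriptionally control actin: Pfn1, Cfl1, Flna, Actn1, Actn4, Vcl, Zyx and Srf. They were taken by symbol, as 10 of the 55401 genes in the mRNA count tables, and they had been chosen by their counts and FPKM in KO against WT, the values of the mRNA-seq itself. Their difference between the genotypes, with the number of them past the threshold of the fit across all genes, is therefore given as a description, and nothing is supported with it. P-values are printed only for genes outside the 10 and for circular RNAs spliced from the same loci.

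The cells were NIH/3T3, an established mouse fibroblast line derived from embryo cultures. One genotype was wild type (WT) and the other was an XPO4 knockout (KO). In the KO, CRISPR-Cas9 left a small deletion with a frameshift in the first exon of Xpo4. This gene encodes an exportin, a carrier that moves cargo from the nucleus to the cytoplasm. The mRNA-seq comprised 3 libraries of each genotype. The circRNA-seq comprised 2 libraries of each genotype from whole cells, cytoplasm and nuclei, made from RNA digested with RNase R, an exonuclease that degrades linear RNA. The study describes a KO cell line with both copies of Xpo4 edited alike. The number of clones behind it is not given in the sources used here. Nothing says that replicates were separate cultures, so that p-values measure only the spread between these libraries. In bulk RNA of this kind, fewer cells of a type and less RNA per cell cannot be told apart.

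Actin monomers polymerise into polar filaments that give a fibroblast its shape, its stress fibres and its moving edge. Profilin hands ATP-loaded monomers to growing ends, cofilin severs old filaments, filamin and alpha-actinin tie filaments into networks and bundles, and vinculin and zyxin couple the filaments to focal adhesions. Monomeric actin also holds the coactivators Mrtfa and Mrtfb in the cytoplasm. When monomers are used up, these coactivators join Srf in the nucleus, where Srf binds a DNA element named the CArG box and switches on actin and many of its partners.

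Total counts ran from 16974062 to 22057323 fragments in the mRNA libraries, from 50341 to 58165 junction reads in the whole-cell circRNA libraries, from 50629 to 81941 in the cytoplasmic ones and from 2189 to 4383 in the nuclear ones. In all 6 mRNA tables the counting command recorded in the heading read an alignment named for the other genotype, while the output name matched the title. Titles were followed here, so the groups are written as labelled KO and labelled WT where a direction matters, and every mRNA direction would turn if the alignment names were the true ones. Xpo4 had 657, 614 and 685 counts in the libraries labelled WT and 712, 504 and 687 in those labelled KO (log2 fold change 0.18 ± 0.11, SE, edgeR adjusted p = 0.193), and a small frameshift deletion need not lower a count, so Xpo4 checks nothing. Ddx3y, Eif2s3y, Kdm5d and Uty, which lie on the Y chromosome, summed to 0 counts in each library labelled WT and to 1208, 1066 and 1059 in those labelled KO, whereas circles at Uty had 10 and 12 reads in the whole-cell WT libraries and 19 and 24 in the KO ones. In the cytoplasmic and nuclear libraries of both genotypes circles at Uty had 0 reads. Line differences other than the edit cannot be told apart from genotype. All 10 fibroblast markers were detected, summing to 23482.5 to 25065 counts per 1000000 (CPM) in WT and 21698 to 24334 CPM in KO. By edgeR 6 of them were higher and 3 lower in the libraries labelled KO. Thy1 was higher by 0.86 (adjusted p = 4.53e-08) and Fn1, the most abundant, fell by 0.21 (adjusted p = 0.0362). Markers of other cell types summed to far fewer CPM than these and also moved with the genotype. The 10 blood and endothelial markers summed to 5.44 to 6.03 CPM in WT and 2.57 to 3.37 CPM in KO. In WT this came mostly from Ptprc, which was lower in KO (log2 fold change -1.78, edgeR adjusted p = 1.03e-05). Lyz2 went the other way, with 3, 1 and 2 counts in WT and 11, 10 and 13 in KO (2.64, adjusted p = 0.00127). Hba-a1 had 0 counts in each WT library and 8, 7 and 6 in KO, and was not tested. The 6 epithelial markers summed to 4.93 to 5.40 CPM in WT and 0.558 to 1.40 CPM in KO, mostly from Krt14 (-2.83, adjusted p = 2.26e-06), and the 6 muscle markers to 61.2 to 65.2 CPM in WT and 87.0 to 93.2 CPM in KO, nearly all from Smtn (0.52, adjusted p = 7.78e-06). In all 6 libraries 3 of the blood and endothelial markers (Cd3e, Hbb-bs and Hbb-bt), 2 of the epithelial (Epcam and Krt18) and 1 of the muscle markers (Myod1) were at 0. The part of these markers in the results was not tested.

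Both cytoplasmic actins had higher levels in the libraries labelled KO. Actb, the beta actin of every non-muscle cell, lies on chr5:142903115-142906754 (mm10, minus strand). Its level was 892, 916 and 910 FPKM (fragments per kilobase of exon and per 1000000 counted fragments) in the libraries labelled WT and 1273, 1454 and 1298 FPKM in those labelled KO. The lowest KO library stood above the highest WT library, and the fitted log2 fold change of Actb was 0.56 ± 0.06 (SE). Actg1, the gamma actin that differs from beta actin by a few residues at its amino end, lies on chr11:120345690-120348542 (minus strand). Its level was 423, 428 and 428 FPKM in WT and 591, 679 and 670 FPKM in KO, again without overlap, for a log2 fold change of 0.60 ± 0.06. The ratio of Actb to Actg1 FPKM was 2.11, 2.14 and 2.13 in WT and 2.15, 2.14 and 1.94 in KO, so the ratio overlapped between the genotypes and was lowest in KO replicate 3. Together they took 0.351% to 0.359% of all counted fragments in WT and 0.498% to 0.570% in KO. Another 6 genes, among them Actg-ps1, matched the Actg1 transcript over 150 bases or more at 95% identity or above, and their summed counts were 1.57% of those of Actg1, so that reads could have been split among these copies.

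The monomer-binding and filament-severing genes also had higher levels in the libraries labelled KO. Pfn1, the main profilin of non-muscle cells on chr11:70651850-70654644 (minus strand), had 189, 194 and 203 FPKM in WT and 270, 285 and 256 FPKM in KO, with a log2 fold change of 0.47 ± 0.06. Cfl1, the non-muscle cofilin on chr19:5490455-5495201 (plus strand), had 293, 308 and 318 FPKM in WT and 382, 417 and 365 FPKM in KO, with a log2 fold change of 0.34 ± 0.06. Neither gene's groups overlapped. The ratio of Cfl1 to Pfn1 FPKM was 1.55 to 1.59 in WT and 1.41 to 1.47 in KO, so the balance in each KO library lay further toward profilin. Exons of Cfl1 share 468 bases, 16.5% of its exon bases, with Snx32 on the other strand. The counting was run without strand, so reads of this stretch cannot be assigned, and Snx32 itself had 68 to 100 counts in WT and 170 to 198 in KO.

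The large cross-linkers had smaller differences, and 2 of 3 had overlapping groups. Flna, the filamin that joins crossing filaments into a gel and links them to the membrane, lies on chrX:74223461-74249820 (minus strand). It had 203, 186 and 188 FPKM in WT and 188, 155 and 188 FPKM in KO, where the groups overlapped and the log2 fold change was -0.12 ± 0.07. Actn1, the alpha-actinin of stress fibres and adhesions on chr12:80167547-80260371 (minus strand), had 60.0, 57.4 and 57.8 FPKM in WT and 65.8, 62.3 and 68.8 FPKM in KO, without overlap and with a log2 fold change of 0.17 ± 0.05. Its paralogue Actn4 on chr7:28893248-28962340 (minus strand), which also bundles filaments at the cell edge, had 92.6, 92.8 and 90.4 FPKM in WT and 97.8, 90.8 and 100 FPKM in KO, with overlap and a log2 fold change of 0.06 ± 0.05. The ratio of Actn4 to Actn1 FPKM was 1.54, 1.62 and 1.56 in WT and 1.49, 1.46 and 1.46 in KO, a small shift toward Actn1 whose groups did not overlap.

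Of the 2 adhesion genes, zyxin had groups that stood apart and vinculin had groups that overlapped. Zyx, a LIM-domain protein that is recruited to strained stress fibres, lies on chr6:42349630-42360213 (plus strand) and had 90.3, 88.9 and 91.5 FPKM in WT and 115, 123 and 119 FPKM in KO, without overlap and with a log2 fold change of 0.40 ± 0.05. Vcl, which binds talin and clamps filaments to the adhesion, lies on chr14:20929398-21033676 (plus strand). It had 19.7, 18.6 and 17.8 FPKM in WT and 20.9, 14.9 and 22.4 FPKM in KO, with a log2 fold change of 0.05 ± 0.11. The KO libraries straddled the WT ones, since KO replicate 2 was the lowest of all 6 and the other two KO libraries the highest. Vcl shares 2090 exon bases, 25.5% of its own, with Ap3m1 on the other strand, which had 773 to 954 counts in WT and 913 to 931 in KO, so that part of Vcl could not be counted.

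Srf, the transcription factor that reads actin supply through Mrtfa and Mrtfb, lies on chr17:46548329-46556175 (minus strand). It had 20.5, 18.6 and 20.7 FPKM in WT and 27.2, 28.6 and 28.5 FPKM in KO, without overlap and with a log2 fold change of 0.49 ± 0.06. The windows of 250 bases upstream of the annotated starts were read for CArG boxes on RefSeq's promoter table (GRCm38.p6), which held 9 of the 10 genes and not Actb. The element is 10 bases long and its own reverse complement in form, so that a match on one strand is a match on the other. A box was found upstream of Actg1 with its 5′ end at position -90, of Vcl at -227 and of Srf at -82 and again at -62 (5′ to 3′ toward the start, boxes in capitals). They are shown because all 3 genes carry the element that Srf binds.
Actg1: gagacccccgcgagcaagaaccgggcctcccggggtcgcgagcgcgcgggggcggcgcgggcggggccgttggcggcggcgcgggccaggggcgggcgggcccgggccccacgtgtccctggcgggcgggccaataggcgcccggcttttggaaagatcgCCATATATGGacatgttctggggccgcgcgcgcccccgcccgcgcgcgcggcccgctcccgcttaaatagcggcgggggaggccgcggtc
Srf: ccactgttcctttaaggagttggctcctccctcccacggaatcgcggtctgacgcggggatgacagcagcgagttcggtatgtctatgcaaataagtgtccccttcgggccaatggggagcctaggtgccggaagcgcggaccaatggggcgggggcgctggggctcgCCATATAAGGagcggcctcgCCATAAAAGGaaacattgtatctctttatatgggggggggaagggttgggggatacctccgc
Vcl: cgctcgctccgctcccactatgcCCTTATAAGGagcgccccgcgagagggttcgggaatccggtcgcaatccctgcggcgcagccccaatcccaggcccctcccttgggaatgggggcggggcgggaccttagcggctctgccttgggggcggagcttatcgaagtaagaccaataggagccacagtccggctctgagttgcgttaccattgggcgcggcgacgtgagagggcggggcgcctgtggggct
These are chr11:120348496-120348745 for Actg1, chr17:46556163-46556412 for Srf, both on the minus strand, and chr14:20929148-20929397 for Vcl on the plus strand. No box stood in the windows of Pfn1, Cfl1, Flna, Actn1, Actn4 and Zyx. The starts used for windows were not always those of the spans given above. The window of Flna, chrX:74246535-74246784, lay inside its span, and so did most of that of Zyx, chr6:42349578-42349827. Little or none of the sequence upstream of these spans was thus read. Of all 32851 windows of this length in the table, 1.47% held one. Actg1, Srf and Vcl, with log2 fold changes of 0.60, 0.49 and 0.05, thus shared the motif. The part of the motif in the mRNA differences was not tested.

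Per length, the order of the levels in WT was Actb, Actg1, Cfl1, Pfn1, Flna, Actn4, Zyx, Actn1, Srf and Vcl, with means from 906 ± 12.6 FPKM (SD, n = 3) for Actb to 18.7 ± 0.961 FPKM for Vcl. Among neighbours in this order, Pfn1 and Flna, Actn4 and Zyx, and Srf and Vcl had overlapping libraries and could not be ordered. In the KO libraries the means ran from 1341 ± 98.2 FPKM for Actb to 19.4 ± 3.97 FPKM for Vcl, Zyx stood above Actn4, and no neighbours overlapped. The FPKM of Vcl was taken over all its exon bases, 25.5% of which are shared with Ap3m1. Its level may thus be understated, and its place below Srf is uncertain in KO too. Actb ranked at 26 by mean FPKM among the 14688 genes tested in WT and at 8 in KO, and Srf at 2758 and 2057. The 10 genes together took 0.827% to 0.832% of counted fragments in WT and 1.03% to 1.08% in KO. With TPM in place of FPKM, the log2 ratio of the group means was 0.57 for Actb and -0.12 for Flna, as with FPKM.

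**Figure D1:**
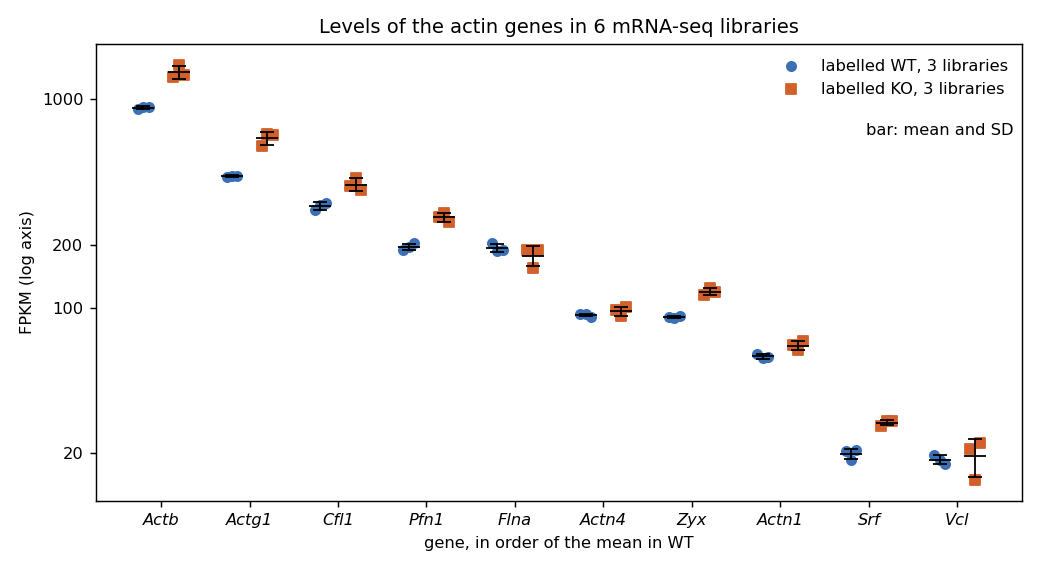
FPKM (log axis) of the 10 genes in the 6 mRNA-seq libraries, with points for single libraries, 3 labelled WT and 3 labelled KO, and bars for the mean and SD. Actb lies between 892 and 916 in WT and between 1273 and 1454 in KO, while the 3 KO values of Vcl, 14.9 to 22.4, enclose those of WT.

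In the fit across all genes, 7 of the 10 had an edgeR adjusted p under 0.05, all with a higher level in the libraries labelled KO, and 7 had groups that did not overlap. In the same comparison 48.7% of all 14688 genes passed this threshold, 25.1% with a higher level, and 57.8% had groups that did not overlap. DESeq2 also called 7 of the 10, and 45.4% of all genes. The 10 genes were chosen on this contrast, so nothing is read from their count. Their median log2 fold change was 0.37, against -0.003 over all genes. Actn1 stood just inside the threshold at 0.17 and Flna just outside it at -0.12. Without KO replicate 2, 9 of the 10 passed where 48.6% of genes did, since Vcl (0.21) and Actn4 (0.10) then had higher fitted levels in KO. Without KO replicate 3, WT replicate 2 or WT replicate 3, Actn1 no longer passed (0.14, 0.15 and 0.16), and without KO replicate 3 Vcl had a log2 fold change of -0.06.

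The 10 genes differed in the length of their exons, and length moved with the difference between the groups and with KO replicate 2. The 5 genes with 2405 to 2893 exon bases (Pfn1, Actg1, Actb, Cfl1 and Srf) had log2 fold changes of 0.34 to 0.60. Those with 8191 and 9457 bases, Vcl and Flna, had 0.05 and -0.12. Across all genes above 8 CPM, the median log2 fold change was 0.12 for 1337 genes of 2000 to 3000 bases and -0.10 for 2033 genes over 8000 bases. Against genes within 25% of their own length, Actb had 0.56 where the median was 0.11, Zyx 0.40 where it was -0.003, and Flna -0.12 where it was -0.07. KO replicate 2 stood apart from KO replicates 1 and 3 in the same way, with a median log2 difference of 0.12 for the genes of 2000 to 3000 bases and -0.16 for those over 8000 bases. With KO replicates 1 and 3 alone against WT, these medians were 0.08 and -0.05. For the genes described here the log2 difference of KO replicate 2 from KO replicates 1 and 3 was 0.20 for Actb, -0.26 for Flna and -0.52 for Vcl. With KO replicate 2 left out, the log2 fold change of Actb was 0.50, of Actg1 0.56, of Pfn1 0.43, of Cfl1 0.28, of Srf 0.48 and of Zyx 0.37, all still higher in KO, while Flna was at -0.04. The part of length in these differences was not tested. Chromosomes also differed in their median, from -0.21 on chromosome 1 to 0.45 on chromosome 10 among the autosomes. The chromosomes that carry the 10 genes had medians from -0.13 to 0.04. The part of gene dosage, of whole chromosomes or of stretches of them, was not tested.

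**Figure D2:**
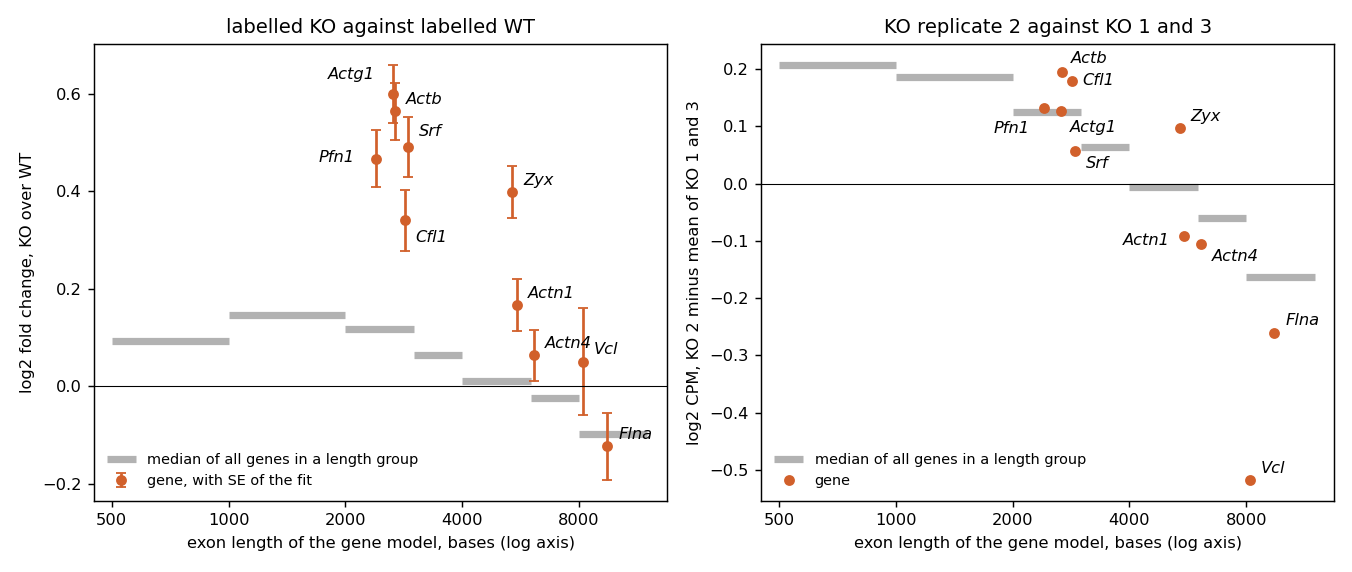
Log2 fold change of the 10 genes, labelled KO over labelled WT with the SE of the fit (left), and log2 CPM of KO replicate 2 minus the mean of KO replicates 1 and 3 (right), both against exon length in bases on a log axis. Grey lines are the median over all genes above 8 CPM in 7 length groups, at 0.09 in the shortest group, 0.15 in the next and -0.10 in the longest on the left, and falling from 0.21 to -0.16 on the right, and Actb and Zyx stand above the lines of their length on both sides.

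The rest of the actin pathway was described from 12 lists that hold none of the 10 genes. Of 134 listed genes 128 were tested, of which 67 were higher and 19 lower in the libraries labelled KO and 42 did not pass (edgeR, adjusted over all 14688 genes), where 25.1% of all genes were higher and 23.6% lower. The median log2 fold change over these 128 genes was 0.21. All 7 listed genes on chromosome 10 were higher and 5 of 9 on chromosome 1 were lower, the 2 autosomes with the outermost medians, and on the other chromosomes 57 of 112 were higher and 14 lower. Without KO replicate 2, 72 were higher and 21 lower.

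Among other actins, 1 of 2 tested was higher: Acta2, the smooth muscle alpha actin that fibroblasts switch on when they become contractile, had 77.3, 82.9 and 84.4 FPKM in WT and 185, 190 and 181 FPKM in KO (log2 fold change 1.18 ± 0.06, adjusted p = 2.43e-09). Actc1 was at 0 in all 6 libraries. Of the Arp2/3 complex, which starts branched filaments, 7 of 9 subunits were higher and none was lower, with a median log2 fold change of 0.22. The changes were small, the largest being those of Actr2 (0.41 ± 0.06, adjusted p = 6.70e-05), Arpc5 (0.40 ± 0.06, adjusted p = 8.28e-05) and Arpc3 (0.34 ± 0.08, adjusted p = 0.00372). Arpc2 had the highest level, at 119 ± 4.39 FPKM in WT and 136 ± 6.51 FPKM in KO (0.19 ± 0.06, adjusted p = 0.0137), and did not pass without WT replicate 1 (0.16, adjusted p = 0.0732). The factors that switch this complex on were mixed, with 3 of 13 higher and 2 lower. Wasf1 was higher by 0.38 ± 0.09 (adjusted p = 0.00415), Abi2, a subunit of the same WAVE complex, fell by 0.38 ± 0.07 (adjusted p = 0.000515) and Whamm fell by 0.32 ± 0.09 (adjusted p = 0.00892). Wasf1 lies on chromosome 10, whose median was 0.45, and Abi2 on chromosome 1, whose median was -0.21. Brk1, the most abundant of them per length, did not pass at 0.14 ± 0.08 (adjusted p = 0.168) but did without KO replicate 3 (0.24, adjusted p = 0.0153).

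Formins and Ena/VASP proteins, which lengthen unbranched filaments, were 3 higher and 3 lower of 12. Enah, a member of the Ena/VASP family, was lower in every KO library, with 16.1, 15.2 and 15.0 FPKM in WT and 8.74, 7.55 and 8.55 FPKM in KO (-0.90 ± 0.06, adjusted p = 7.78e-08), whereas its relative Vasp was higher (0.44 ± 0.06, adjusted p = 1.96e-05). Enah lies on chromosome 1, whose median was -0.21. The formin Fhod1 was higher by 0.53 ± 0.06 (adjusted p = 1.14e-05), and Inf2, the most abundant, did not pass (-0.07 ± 0.05, adjusted p = 0.254). Of genes for monomer binding and filament turnover, 10 of 18 were higher and 2 lower. Tmsb4x, the thymosin that stores monomers, was higher by 0.63 ± 0.08 (adjusted p = 1.98e-05) and Pfn2, the second profilin, by 0.62 ± 0.06 (adjusted p = 9.00e-07). Ssh2, a phosphatase that activates cofilin, fell by 0.73 ± 0.12 (adjusted p = 0.000282), and Tmsb10, the most abundant of the list at 318 ± 8.04 FPKM in WT and 329 ± 47.6 FPKM in KO, did not pass (adjusted p = 0.680). Tmsb10 had a log2 fold change of -0.08 without KO replicate 2.

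Of capping and severing genes, 5 of 10 were higher and 2 lower. Gsn, the gelsolin that severs and caps filaments, had 126 ± 1.77 FPKM in WT and 210 ± 8.36 FPKM in KO (0.74 ± 0.05, adjusted p = 1.19e-07), Eps8 was higher by 0.80 ± 0.05 (adjusted p = 4.12e-08) and Svil fell by 0.52 ± 0.07 (adjusted p = 2.56e-05). Of other cross-linkers and bundlers, 6 of 13 were higher and 3 lower. Tagln2, which stiffens filaments against severing, was lower in every KO library, at 198, 197 and 213 FPKM in WT and 92.4, 106 and 98.8 FPKM in KO (-1.03 ± 0.06, adjusted p = 2.82e-08), and also lies on chromosome 1. The bundlers Pls3 (0.70 ± 0.05, adjusted p = 1.98e-07) and Synpo (0.73 ± 0.07, adjusted p = 2.68e-06) were higher, as was Fscn1, by 0.27 ± 0.05 (adjusted p = 0.000899), which had the highest level of the list in KO, whereas Tagln2 had it in WT. All 4 tropomyosins, which coat filaments and decide which partners bind them, were higher: Tpm2 by 0.75 ± 0.06 (adjusted p = 2.30e-07), Tpm1 by 0.72 ± 0.05 (adjusted p = 9.55e-08), Tpm3 by 0.36 ± 0.05 (adjusted p = 6.02e-05) and Tpm4 by 0.25 ± 0.06 (adjusted p = 0.00212).

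Of non-muscle myosin II and its RhoA pathway, 9 of 11 were higher and none lower, with a median log2 fold change of 0.31. Myl9, a regulatory light chain, had 3.55, 4.54 and 4.92 FPKM in WT and 17.0, 18.0 and 18.0 FPKM in KO (2.02 ± 0.12, adjusted p = 2.49e-08). Mylk, the kinase that activates that light chain, was higher by 1.48 ± 0.11 (adjusted p = 1.93e-07) from 0.613 ± 0.0801 to 1.71 ± 0.0438 FPKM, and Myl6, the essential light chain, by 1.34 ± 0.06 (adjusted p = 2.37e-09) on chromosome 10. Of focal adhesion plaque genes, 11 of 20 were higher and 3 lower. Tns2, a tensin, was higher by 0.85 ± 0.06 (adjusted p = 6.65e-08), Fermt2, a kindlin that activates integrins, by 0.67 ± 0.06 (adjusted p = 8.85e-07), and Trip6, the most abundant and a relative of zyxin, by 0.17 ± 0.06 (adjusted p = 0.0231). Trip6 did not pass without KO replicate 1, WT replicate 1, WT replicate 2 or WT replicate 3, at log2 fold changes of 0.15, 0.15, 0.18 and 0.17. Ilk rested on 6 to 14 counts in WT and 20 to 35 in KO (1.60 ± 0.38, adjusted p = 0.00322).

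Of 6 partners of Srf tested, 1 was higher and 3 lower. Both actin-sensing coactivators were lower: Mrtfa fell by 0.49 ± 0.06 (adjusted p = 3.10e-05) and Mrtfb fell by 0.51 ± 0.08 (adjusted p = 0.000245). Elk4, which lies on chromosome 1, was lower too, and the ternary complex factor Elk3 on chromosome 10 was higher by 1.00 ± 0.06 (adjusted p = 1.62e-08). Of 13 listed MRTF-SRF targets, 10 were higher and 1 lower, with a median log2 fold change of 1.19, the highest of the 12 lists. Ccn2, a secreted matrix regulator, had 9.17, 9.75 and 9.78 FPKM in WT and 61.5, 69.9 and 66.3 FPKM in KO (2.78 ± 0.07, adjusted p = 4.18e-12), and it too lies on chromosome 10. Cnn1, a smooth muscle calponin, went the other way, with 11.2, 10.2 and 10.9 FPKM in WT and 1.95, 2.14 and 1.83 FPKM in KO (-2.45 ± 0.10, adjusted p = 5.13e-10). Fhl1, named after its values were seen, had 0 counts in each WT library and 17, 16 and 12 in KO, at least 17.5-fold higher if 3 counts over the WT group are taken as the limit, and with Fhl1 at that bound the list's median was also 1.19. A CArG box stood in 5 of the 10 windows held for these targets, against 1.47% of all windows, and in 0 of the 6 windows of the partners. The list was made of genes held to be driven by Srf, so this share follows from the list and is no result of these data. Of 4 windows held for the other actins, 2 had a box: Acta1, with 2 to 11 counts in a library, and Actc1, at 0. Acta2, Tpm1 and Myl9 stand on this list and on one above, and all lists were chosen with earlier results of these data known.

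**Figure D3:**
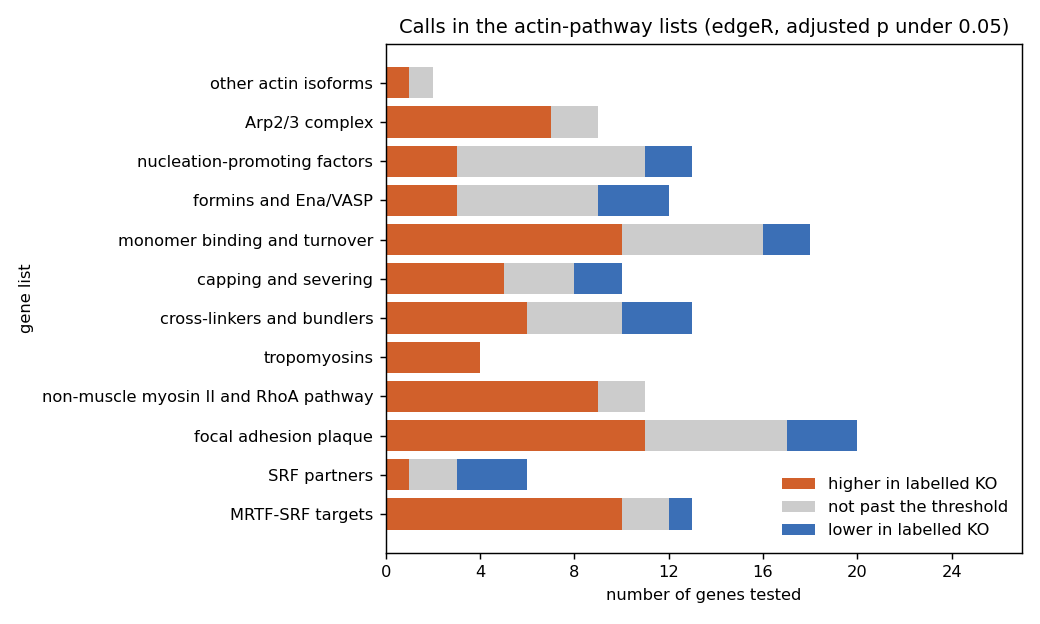
Number of genes tested in each of 12 actin-pathway lists that were higher in the libraries labelled KO, lower, or not past an edgeR adjusted p of 0.05. All 4 tropomyosins and 9 of 11 myosin and RhoA genes are on the higher side, while 3 of 6 SRF partners are on the lower side.

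Genes whose levels followed the actins most closely over the 6 libraries were taken among 9696 genes with a mean of at least 10 CPM, by Pearson's r of log2(CPM + 1). They are given as a description, since 6 points that fall into 2 genotypes give many genes an r near 1. For Actb they were Tnfrsf12a (r = 0.999), Xlr (r = 0.999) and Mirg (r = 0.999). For Actg1 they were Lamp1 (r = 1.000), Gm28437 (r = 0.999) and Ccnc (r = 0.998), and for Srf Polr3g (r = 0.999), Tmem115 (r = 0.998) and Ptges (r = 0.997). Lamp1, for example, had 499.9, 500.0 and 504.5 CPM in WT and 656.0, 734.4 and 727.6 CPM in KO, with KO replicate 1 the lowest of its group as for Actg1.

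Circular RNAs form when the end of an exon is spliced back to the start of an exon before it, and the reads across that junction were counted apart from the mRNA. They were not used to list the 10 genes. Of 16171 circles in the 12 circRNA libraries, 22 lay in 6 of the 10 loci: 8 at Vcl, 5 at Flna, 4 at Actn1, 2 each at Actn4 and Zyx and 1 at Srf. The 4 loci with short genes, Actb, Actg1, Pfn1 and Cfl1, had none listed. In 21 of the 22, both ends lay on annotated exon edges within coding sequence, flanked by AG before and GT after, and the exons between them came to 235 to 1113 bases with a median of 379. Circles are named here by their gene and the exons of the GENCODE transcript they span, so that circVcl(3-6) joins the end of exon 6 to the start of exon 3. Several share a splice site, as circVcl(3-6), circVcl(3-10) and circVcl(3-5) do, and are not independent of each other.

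The junctions of the 7 circles that differed in the cytoplasm are shown, since each of these is the only sequence that tells a circle from its mRNA. The last 20 bases before the junction are in lower case and the first 20 after it in capitals, 5′ to 3′ on the gene's strand, from GRCm38.p6.
circActn1(11-12): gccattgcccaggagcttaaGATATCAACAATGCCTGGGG
circActn1(2-8): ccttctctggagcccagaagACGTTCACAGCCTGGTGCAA
circVcl(7-13): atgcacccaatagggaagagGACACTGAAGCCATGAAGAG
circFlna(5-6): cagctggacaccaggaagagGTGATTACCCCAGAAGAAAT
circFlna(31-33): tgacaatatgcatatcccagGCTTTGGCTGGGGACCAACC
circActn4(16-17): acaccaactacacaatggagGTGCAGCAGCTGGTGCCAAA
circActn4(2-3): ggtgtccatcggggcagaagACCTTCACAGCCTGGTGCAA
They span chr12:80178302-80181508, chr12:80192368-80209473, chr14:20995012-21010166, chrX:74241801-74242639, chrX:74229826-74230396, chr7:28896876-28897983 and chr7:28918672-28919068 in that order. Actn1 and Actn4 are paralogues, and 19 of the 20 bases after the junction are the same in circActn1(2-8) and circActn4(2-3), both of which begin at exon 2.

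In the cytoplasm 12 of these circles had at least 10 reads over the 4 libraries and were tested. 7 of them passed, 3 higher and 4 lower in the libraries labelled KO (edgeR, adjusted over 8917 circles), where 53.5% of all cytoplasmic circles passed, 30.0% higher and 23.5% lower. The share among the 12 was thus near the background and is no result about these loci. At an unadjusted p under 0.05 stood 8 of the 12 and 61.4% of all circles. DESeq2 called 0 of the 9 that it gave an adjusted p, with 5 of the 12 at an unadjusted p under 0.05, and called 5.87% of all circles, so each call below held by edgeR alone. With KO replicate 1, KO replicate 2, WT replicate 1 or WT replicate 2 left out, edgeR called 2, 3, 5 and 3 of these circles, in fits that leave 1 library in an arm and assume that it varies as the other genotype does, so that lost calls there are not read as weaker differences. Of the 7, only circActn1(11-12) had at least 10 reads in the genotype where it was lower. The others reached the test only through the genotype where they were higher, so their ratios and p-values are given as a description. The values rest on few reads, and intervals given here are exact 95% intervals that cover counting error only.

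Both circles of Actn1 in the cytoplasm were higher. circActn1(11-12) had 8 and 7 reads in the WT libraries and 21 and 19 in the KO libraries, a ratio per library total of 3.74 (2.02 to 7.28) and an adjusted p of 0.00957. circActn1(2-8) had 1 and 1 reads in the WT libraries and 10 and 6 in the KO libraries, a ratio of 11.2 (2.64 to 101) and an adjusted p of 0.000814. In the mRNA libraries labelled KO the level of Actn1 was 1.12-fold that in labelled WT. The conflict of genotype names was found in the mRNA tables alone, and the mRNA and whole-cell circRNA sets labelled WT also differed at Y-linked genes. Directions of circles and of mRNA are therefore not set against each other here. circVcl(7-13) had 2 and 0 reads in the WT libraries and 7 and 9 in the KO libraries, also a ratio of 11.2 (2.64 to 101), with an adjusted p of 0.00104. The most abundant circle of Vcl and of all 10 loci, circVcl(3-6), did not pass, with 19 and 20 reads in the WT libraries and 9 and 10 in the KO libraries, a ratio of 0.683 (0.373 to 1.21) and an adjusted p of 0.462.

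The circles of Flna and Actn4 that passed were lower. circFlna(31-33) had 9 and 10 reads in the WT libraries and 0 and 1 in the KO libraries, a ratio of 0.0738 (0.00178 to 0.464) and an adjusted p of 0.00194. circFlna(5-6) had 4 and 12 reads in the WT libraries and 1 and 2 in the KO libraries, a ratio of 0.263 (0.0491 to 0.918) and an adjusted p of 0.0382. circActn4(16-17) had 4 and 11 reads in the WT libraries and 0 and 0 in the KO libraries, at least 3.57-fold lower if 3 reads over the KO group are taken as the limit, with an upper end of 0.391 for the ratio's exact 95% interval, which counts the error of both groups, and an adjusted p of 0.00188. circActn4(2-3) had 5 and 6 reads in the WT libraries and 0 and 1 in the KO libraries, a ratio of 0.127 (0.00296 to 0.877) and an adjusted p of 0.0247. The mRNA level in labelled KO was 0.918-fold that in labelled WT for Flna and 1.05-fold for Actn4. The circle of Srf, circSrf(3), had 4 and 5 reads in the WT libraries and 1 and 0 in the KO libraries and missed the threshold (adjusted p = 0.0548). Srf mRNA was 1.41-fold higher in the mRNA libraries labelled KO, with the limit given above for comparing circles with mRNA. circZyx(3-4) had 6 and 8 reads in the WT libraries and 9 and 8 in the KO libraries (adjusted p = 0.161), circVcl(10-11) 10 and 5 against 6 and 9 (adjusted p = 0.370), and circVcl(15-16) 7 and 6 against 2 and 1 (adjusted p = 0.0959).

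In whole cells 12 circles were tested and none passed by edgeR (adjusted p of 0.0794 or more), as for all 8903 circles (0.0% called). At an unadjusted p under 0.05 stood 3 of the 12 and 38.2% of all circles, and DESeq2 called 0 of the 2 circles that it gave an adjusted p, with 0.297% of all circles called. circActn1(11-12) had 3 and 3 reads in the WT libraries and 7 and 11 in the KO libraries, a ratio of 3.12 (1.19 to 9.61) in the same direction as in the cytoplasm. circFlna(5-6) had 4 and 6 in WT and 2 and 0 in KO, and circFlna(25-26), named after its values were seen, had 1 and 2 in WT and 4 and 8 in KO, the other two with an unadjusted p under 0.05. circVcl(3-6) had 8 and 6 in WT and 3 and 5 in KO, and circVcl(3-10), which was listed in whole cells alone, had 6 and 3 in WT and 4 and 4 in KO. The circles of these loci together made 87.1 to 91.7 reads per 100000 in WT and 73.9 to 99.3 in KO in whole cells, and 111 to 120 against 107 to 134 in the cytoplasm, so their sum overlapped between genotypes in both. In the nucleus the sole circle was an intronic one of Vcl, on chr14:20958525-20958795 with neither end on an exon edge, with 0 and 1 reads in the WT libraries and 3 and 7 in the KO libraries, which did not pass by edgeR (adjusted p = 0.179), where 10.1% of 651 circles did. Its unadjusted p was 0.0518, where 26.1% of circles had one under 0.05, and DESeq2 did not call it either (0.0% of circles called).

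Of the 22 circles 14 were listed in whole cells and 14 in the cytoplasm, with 7 in both, 50.0% of each list. Over all circles, the 4803 in both made 44.9% of the whole-cell and 49.8% of the cytoplasmic list. Each circle listed in a fraction had reads in at least 2 of its 4 libraries, so a circle that a fraction does not list may still have had reads there.

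**Figure D4:**
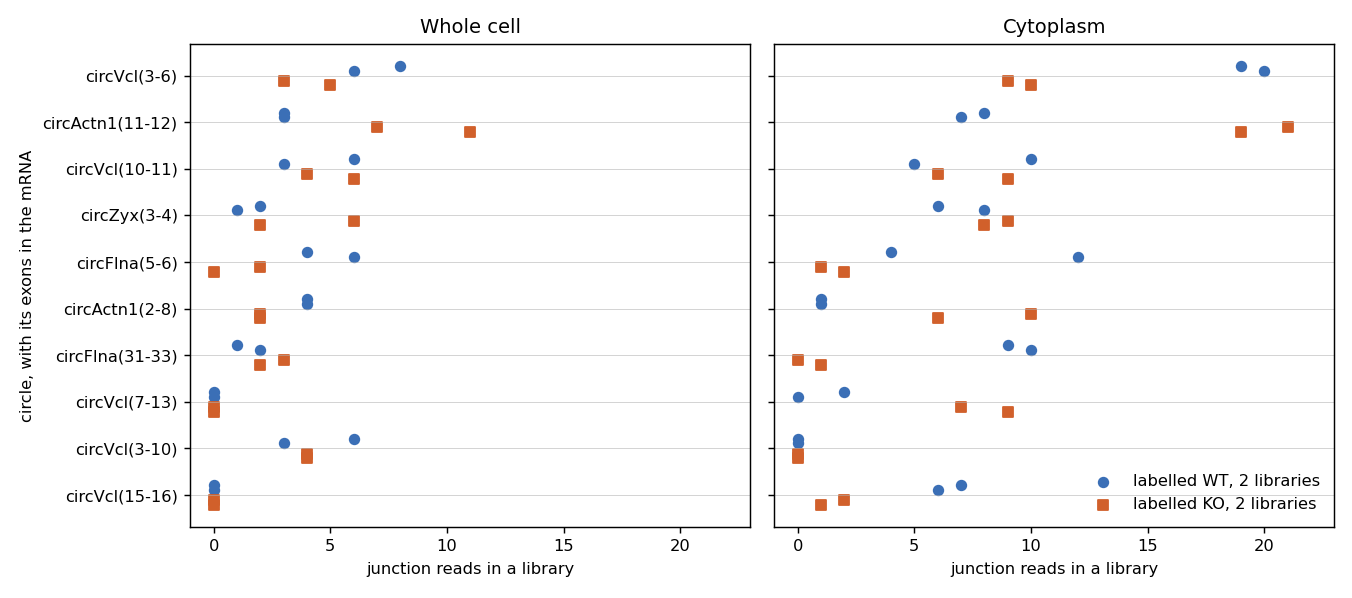
Junction reads of the 10 circles with most reads in whole-cell (left) and cytoplasmic (right) libraries, with a point for each of 2 libraries labelled WT and 2 labelled KO. circActn1(11-12) has 19 and 21 reads in the cytoplasm of KO against 7 and 8 in WT, and circFlna(31-33) 0 and 1 against 9 and 10.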

How the data were processed

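Per the labels, NIH/3T3 RNA was sequenced as paired 150-base reads on an Illumina NovaSeq 6000, with RNase R before the circRNA libraries. The labels' extraction text speaks of blood, and the study gives NIH/3T3 as the source. For mRNA, the authors deposited whole-number fragment counts per gene made with featureCounts 2.0.0 on exons of a GENCODE mm10 annotation without strand, after alignment named in the submitters' processing notes as HISAT2. For circRNA, the authors deposited counts of junction reads found with find_circ. Circles a library did not list were set to 0. Every circle listed in a fraction had reads in at least 2 of its 4 libraries. All counts were used as deposited, and FPKM and TPM were computed from counts and the tables' exon lengths.

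Genes were matched to symbols by unversioned ID (55141 of 55401). Of 2 IDs named Myl12b the one with more counts was used. The genotypes were compared with edgeR 4.0.16 (TMM, filterByExpr, quasi-likelihood test, Benjamini-Hochberg over all genes) in R 4.3.3, and circles likewise in each fraction with at least 10 reads over 4 libraries. SEs are the log2 fold change over the root of F. Scripts were tested on simulated data. Alternatives were DESeq2 1.42.0, other scalings, no filter, the replicate number as a block, and each library left out. Near copies were sought with blastn 2.17.0 and sequences read from GRCm38.p6, which has the coordinates of mm10. Protein sequences were not used here.

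The genes and lists were chosen with earlier results of these data known. Named were the 10 genes, Xpo4, in each list the up to 3 genes with the largest absolute log2 fold change among those with an adjusted p under 0.05 and at least 1 CPM in the higher genotype plus the gene with the highest mean FPKM, the 3 genes most alike to Actb, Actg1 and Srf, and the 10 circles with most reads. Other circles that passed or that alone represent a gene or fraction, Elk4, Snx32, Ap3m1, Fhl1, Acta1 and Hba-a1 were named after their values were seen. Replicates were compared by chi-square, which is near 1 per feature for copies of the same library. It was 3.06 to 12.1 per gene between mRNA replicates and 1.10 to 2.37 per circle, lowest in whole-cell WT (1.10, chi-square p = 1.60e-05) and nuclear KO (1.22, p = 0.0102), so no pair was merged.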

Additional observations from a re-analysis of the deposited data

Results flagged for a closer look

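2 circles had genotype differences that pointed in opposite directions in the cytoplasm and in whole cells, with no overlap of reads per library total in either. The share of all circles with this pattern was not counted, so nothing is read from there being 2. circActn1(2-8) had a KO over WT ratio of 11.2 in the cytoplasm, from 1 and 1 reads in the WT libraries and 10 and 6 in the KO libraries, and of 0.520 in whole cells (exact 95% interval 0.115 to 1.94), from 4 and 4 reads in the WT libraries and 2 and 2 in the KO libraries. circFlna(31-33) had a ratio of 0.0738 in the cytoplasm, from 9 and 10 reads in the WT libraries and 0 and 1 in the KO libraries, and of 1.73 in whole cells (0.337 to 11.2), from 1 and 2 reads in the WT libraries and 3 and 2 in the KO libraries. In whole cells, replicate 2 of WT and of KO had 2 reads each. They differed only through their library totals of 55109 and 50341. Both circles reached the cytoplasmic test only through the genotype where they were higher. The difference between the fractions was not tested, and both whole-cell intervals include 1. Single outlying libraries were not tested for, since that needs 4 libraries in a group. Among the mRNA libraries, the mean chi-square per gene was 12.1 between KO replicates 2 and 3, against 3.63 between KO replicates 1 and 3.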

How the results depend on the processing

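The count of the 10 genes past the threshold was 7 under RLE size factors, library totals only, DESeq2, no low-count filter and the replicate block, and 6 to 9 when 1 library was left out. Of the pathway lists, 85 or 86 genes passed under the first of these and 77 to 93 with 1 library left out, against 86, and over all genes 6662 to 7696 and 6143 to 7397, against 7151. Same-numbered mRNA libraries did not deviate together in all pairs (correlations 0.12, 0.08 and -0.14), so numbers do not pair them: the replicate block called 7124 genes, 7 of the 10 and 86 of the lists. For the circles of these loci, the replicate block called 1 in whole cells, 6 in the cytoplasm and 0 in the nucleus. In whole cells, total junction reads only called 1, circActn1(11-12), as did the block, against 0, and 0 whichever library was left out. In the cytoplasm, against 7, DESeq2 called 0, total junction reads only and no filter 8, and leaving out a library 2 to 5. These fits hold 1 library in an arm, whose spread is assumed to be that of the other genotype, so a lost call is not read as a weaker difference. Calls were lost for circFlna(31-33) without KO replicate 1 (-2.20), for circFlna(5-6) without either KO replicate (-1.0 and -1.84), for circActn4(16-17) (-5.68 and -5.66) and circActn4(2-3) (-1.42 and -5.22) likewise, for circActn1(11-12) without either WT replicate (1.88 and 1.35) and for circVcl(7-13) without WT replicate 2 (1.96), while circActn1(2-8) passed in the 3 of these fits that kept 10 reads (2.88 to 4.21). In the nucleus no setting called the circle, and under 10 reads were left without either KO replicate. With 1 library left out the log2 fold change turned sign for Vcl mRNA (-0.055 without KO replicate 3, with a range of -0.055 to 0.21), Tmsb10 (-0.081 to 0.12), circVcl(3-10) in whole cells (-0.85 to 0.28), circVcl(10-11) in whole cells (-0.54 to 0.85) and in the cytoplasm (-0.39 to 1.22), circZyx(6-8) in whole cells (0.22), circFlna(37-39) in whole cells (-0.0011) and circVcl(3-6) in the cytoplasm (-0.96 to 0.0032), none of which had passed. The causes were not tested. With TPM, log2 ratios moved by less than the spread between libraries. The circle results rest on few junction reads and 2 libraries per genotype.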
